A study of Mus musculus with 27 samples.

Results

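The Sox genes encode transcription factors that bind DNA through an HMG box, a domain that bends the double helix and that all members share with Sry. The 9 genes described here are Sox1, Sox3, Sox4, Sox9, Sox11, Sox15, Sox17, Sox18 and Sox21, the members of the family other than Sox2 that were chosen by gene symbol from the 20156 genes of the deposited expression tables, and all 9 were found there. By the usual grouping of the family, Sox1 and Sox3 belong with Sox2 to group B1, activators that keep neural progenitors undifferentiated, and Sox21 to group B2, repressors that work against them. Sox4 and Sox11 form group C, which acts in neuronal and mesenchymal progenitors, Sox9 is a group E gene and the master regulator of cartilage, Sox17 and Sox18 are group F genes of endoderm and of blood and lymph vessels, and Sox15 is the only group G gene. Sox2 is one of the factors used to reprogram cells, and several of its relatives bind much the same DNA motif.

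The study compared mouse embryonic fibroblasts (MEFs), pre-iPSCs, which are colonies that have left the fibroblast state without full reprogramming, and induced pluripotent stem cells (iPSCs). The MEFs came from e13.5 embryos that were hemizygous for an Oct4-GFP transgene and a Rosa26 allele, from CBA/CaJ × C57BL/6J fathers and 129Sv/Jae mothers. Pre-iPSCs and iPSCs were made from such MEFs with retroviruses for Oct4, Sox2, Klf4 and c-Myc, came from stable clones, were grown with LIF on layers of MEF feeder cells, and were taken for RNA after 6 passages. The labels do not say which clone gave which library. RNA, histone H3, H3K4me3 (a mark of active promoters) and H3K27me3 (the mark of Polycomb repression) were each measured in 2 replicates of every cell type, and H3K9me3 (a mark of heterochromatin) in 1, which gives 21 chromatin and 6 RNA libraries. MEF chromatin was digested with another amount of micrococcal nuclease and for another time than that of the reprogrammed cells, so digestion and cell type cannot be told apart in any comparison of chromatin with MEFs.

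The summed level of 12 fibroblast genes was 7849 and 9638 FPKM in MEFs, 1177 and 853.9 FPKM in pre-iPSCs, and 456.0 and 582.3 FPKM in iPSCs, and every gene of the list was above 0 in all 6 libraries. That of 12 genes of pluripotent cells was 16.8 and 49.4 FPKM in MEFs, 843.6 and 3652 FPKM in pre-iPSCs, and 2484 and 2380 FPKM in iPSCs. Pou5f1, which encodes the Oct4 that was also delivered by retrovirus, made up 377.9 and 3184 FPKM of the sums in pre-iPSCs and 585.9 and 397.5 FPKM of those in iPSCs, and the RNA of the virus and of the cell's own gene cannot be told apart in these values. The median of the 12 genes was 9.24 and 3.34 FPKM in pre-iPSCs and 55.4 and 68.8 FPKM in iPSCs. Nanog, a core factor of the pluripotent network that was not delivered, was at 0 in both MEF libraries, at 0.519 and 0 FPKM in pre-iPSCs and at 49.5 and 73.6 FPKM in iPSCs. Zfp42, Esrrb and Dppa3, other genes of pluripotent cells, were at most 0.0837 FPKM in pre-iPSCs and at least 11.3 FPKM in iPSCs. Other genes of the list that were not delivered were on in pre-iPSCs. Tdgf1 was at 228.2 and 333.0 FPKM there and Fgf4 at 23.1 and 13.9 FPKM. Tdh was at 170.7 and 100.3 FPKM there, above its 23.8 and 28.6 FPKM in iPSCs. Of the 12 genes, 6 rose in pre-iPSCs against MEFs by the test described below, where 7.39% of all genes did. The 6 include Pou5f1. In the 2 MEF libraries 9 and 7 of the 12 were listed at 0, and these passed the filter of that test through the reprogrammed cells. Against MEFs most of the 12 could hardly fall, so the count is partly set by the filter. Feeder cells are one possible source of the fibroblast transcripts in pre-iPSCs and iPSCs, and the part they may have in the levels of Sox4, Sox9 and Sox11 below was not tested. The nucleosome calls of a library held 67362868 to 108211816 reads for H3, 12007350 to 13146349 reads for H3K4me3, 13224775 to 15222040 reads for H3K27me3 and 12222861 to 12942154 reads for H3K9me3. Replicate 1 of pre-iPSC H3 and replicate 1 of iPSC H3 stood apart: across 20156 genes their H3 reads around the TSS rose with GC content (Spearman rho 0.618 and 0.575), while rho lay between -0.337 and -0.179 in the other 4 libraries.

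The 9 genes lie on 8 chromosomes, Sox9 and Sox15 sharing chromosome 11. In mm9 the spans of the RefSeq transcripts run from 1691 bp for Sox15 to 8451 bp for Sox11. Sox3, Sox4, Sox11 and Sox21 have a single exon in the GENCODE annotation of the same build, Sox15 and Sox18 have 2, Sox9 has 3 and Sox17 has 5. Sox1 had no entry in that annotation. The nearest GENCODE TSS lay 277 bp from the RefSeq TSS for Sox15, and at most 31 bp from it for the other annotated members. All windows here are placed by the RefSeq TSS, so that of Sox15 may not sit at its GENCODE start. The DNA at most of these start sites is rich in CpG, with a median of 75 CpG within 500 bp of the TSS against 47 over all genes. Sox11 had 109, Sox3 had 96 and Sox1 had 89, while Sox15 and Sox17 were below the median of all genes with 26 and 25. The motif AACAAT, the core that Sox proteins bind, was sought on both strands of the 250 bp before the TSS and was in 0 of the 9 windows, against 8.04% of the windows of all genes. The promoters of 4 genes are shown, since the results turn on them: Sox1 and Sox3 were expressed mainly in iPSCs, Sox15 in pre-iPSCs and iPSCs, and Sox9 gained H3K27me3. Each sequence is the strand of the gene from RefSeq coordinates in mm9, and CpG dinucleotides are in capitals.
Sox1, chr8:12395269-12395518, plus strand: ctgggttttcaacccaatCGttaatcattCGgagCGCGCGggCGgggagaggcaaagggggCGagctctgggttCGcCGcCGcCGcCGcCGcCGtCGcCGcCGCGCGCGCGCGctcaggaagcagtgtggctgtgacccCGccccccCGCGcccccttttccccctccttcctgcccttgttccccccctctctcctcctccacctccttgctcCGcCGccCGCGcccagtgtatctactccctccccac
Sox3, chrX:58146606-58146855, minus strand: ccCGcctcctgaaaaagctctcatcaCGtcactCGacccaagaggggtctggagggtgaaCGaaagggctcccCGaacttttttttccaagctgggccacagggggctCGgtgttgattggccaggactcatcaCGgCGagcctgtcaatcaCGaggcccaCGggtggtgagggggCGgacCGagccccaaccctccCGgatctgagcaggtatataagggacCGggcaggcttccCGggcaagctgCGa
Sox15, chr11:69468289-69468538, plus strand: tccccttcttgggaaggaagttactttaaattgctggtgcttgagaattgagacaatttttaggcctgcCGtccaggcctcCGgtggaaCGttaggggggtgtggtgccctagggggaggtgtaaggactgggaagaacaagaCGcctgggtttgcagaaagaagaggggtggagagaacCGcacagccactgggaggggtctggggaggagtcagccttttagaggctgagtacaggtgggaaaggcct
Sox9, chr11:112643274-112643523, plus strand: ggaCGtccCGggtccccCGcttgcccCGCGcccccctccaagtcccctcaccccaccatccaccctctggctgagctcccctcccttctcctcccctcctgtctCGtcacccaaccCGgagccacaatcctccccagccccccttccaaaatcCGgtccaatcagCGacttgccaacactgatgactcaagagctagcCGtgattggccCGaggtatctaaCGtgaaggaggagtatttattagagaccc

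The Sox1 window holds 29 CpG, those of Sox3 and Sox9 hold 16 and 12, and that of Sox15 holds 5, so Sox1 and Sox15, which both gained H3K4me3, have the most and the fewest CpG of the 4. No other gene of the expression tables starts within 2000 bp of these TSSs. In GENCODE the lincRNA Gm4675 runs against Sox21 and overlaps it by 799 bp, and a predicted miRNA, AC102525.1, lies within Sox1 for 86 bp. The transcript Gm14662 starts upstream of Sox3 and the lincRNA BC006965 upstream of Sox9, both on the opposite strand and without overlap. Both starts lie within 500 bp of the TSS of the member, and those of Gm4675 and AC102525.1 within 1000 bp. Windows of 1000 bp around the TSSs of Sox1, Sox3, Sox9 and Sox21 thus hold another GENCODE start. Reads of H3 and of the marks there cannot be assigned to the member alone. The use of strand in the RNA counting is not given in the sources used here, so reads of Sox21 and of Gm4675 cannot be told apart in the overlap.

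The first question was which members of the family the fibroblasts expressed and which came on as cells were reprogrammed. In MEFs, Sox4, Sox11 and Sox9 were the expressed members and the other 6 were below 0.11 FPKM in both libraries. In pre-iPSCs Sox15 rose, Sox1 and Sox18 rose to low levels, and Sox4 fell. In iPSCs Sox1 and Sox3 were higher than in pre-iPSCs, so that Sox4, Sox15, Sox1, Sox3 and Sox11 were the highest of the 9 members there. FPKM counts fragments per kb of transcript, scaled to the size of the library, so it can be compared between genes. It was tested as log2(FPKM + 1) with limma over the 12401 genes whose mean reached 0.5 FPKM, and a call needed an adjusted p under 0.05 with a difference of 1 or more on that scale, which understates the change of low genes. Of the members, 8 were tested and Sox17 was too low. In bulk RNA, fewer cells of a type and less RNA per cell cannot be told apart, and with 2 samples against 2 an exact permutation test of 1 gene cannot go below p = 0.33, so the calls rest on the spread shared across genes.

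**Figure D1:**
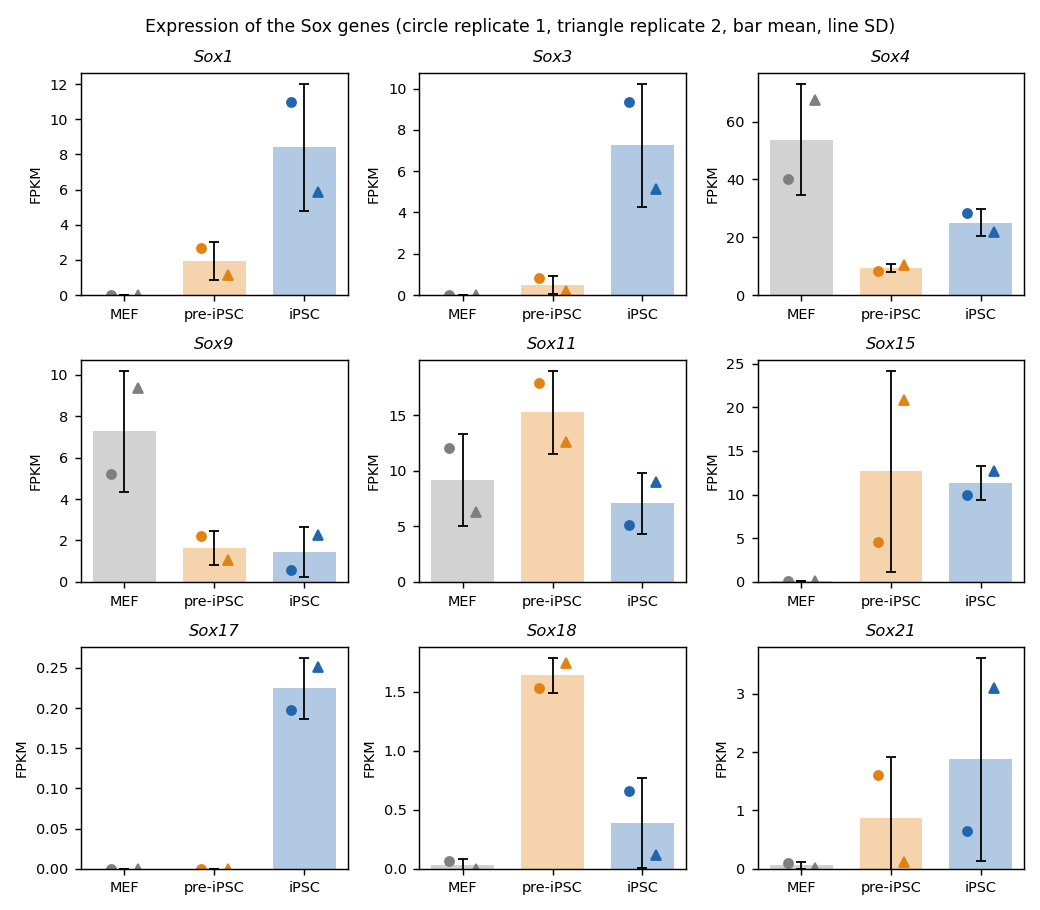
Expression of the 9 Sox genes in FPKM (y axis, linear and set for each gene) in MEFs, pre-iPSCs and iPSCs. Circles are replicate 1, triangles replicate 2, bars the mean and lines the SD (n = 2). Sox4 is highest in MEFs at 53.7 FPKM, Sox15 is near 0 in MEFs only, and Sox1 and Sox3 are highest in iPSCs at 8.40 and 7.24 FPKM.

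Sox1 and Sox3 were highest in iPSCs. Sox1, an early marker of the neural plate, was at 0.0243 and 0 FPKM in MEFs, 2.69 and 1.15 FPKM in pre-iPSCs, and 10.96 and 5.84 FPKM in iPSCs. The 3 cell types did not overlap. Sox1 was called in all 3 comparisons, with a difference of 1.48 ± 0.37 (SE) on the log2(FPKM + 1) scale in pre-iPSCs against MEFs (limma, adjusted p = 0.034), 1.68 ± 0.37 in iPSCs against pre-iPSCs (adjusted p = 0.033) and 3.16 ± 0.37 in iPSCs against MEFs (adjusted p = 0.0018). The last call held without each library in turn, while the steps between neighbouring stages were each lost without either pre-iPSC or either iPSC library, and the first of them without MEF replicate 1 too (adjusted p from 0.058 to 0.27). Sox3, which acts in the neural tube and the pituitary and lies on the X chromosome, was listed at 0 in both MEF libraries, at 0.806 and 0.180 FPKM in pre-iPSCs, and at 9.36 and 5.13 FPKM in iPSCs. Its mean was 14.7 times higher in iPSCs than in pre-iPSCs, a ratio that rests on the low and uneven pre-iPSC values. On the log2(FPKM + 1) scale the difference was 2.45 ± 0.34 (adjusted p = 0.0069), and that from MEFs was 2.99 ± 0.34 (adjusted p = 0.0017). The difference from pre-iPSCs was lost without either iPSC library (adjusted p = 0.085 and 0.068). Between pre-iPSCs and MEFs the difference of Sox3 was 0.55, with an interval of -0.26 to 1.35 and adjusted p = 0.33. For comparison, Sox2 was at 0.124 and 0.128 FPKM in MEFs, 272.5 and 171.2 FPKM in pre-iPSCs, and 65.7 and 115.7 FPKM in iPSCs, values in which transcripts of the retrovirus and of the gene cannot be told apart here.

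Sox21, the group B2 gene, was at 0.104 and 0.0201 FPKM in MEFs, 1.61 and 0.112 FPKM in pre-iPSCs, and 0.644 and 3.10 FPKM in iPSCs. Replicates of pre-iPSCs and of iPSCs were far apart and overlapped. No comparison called it, the largest difference being 1.29 in iPSCs against MEFs with an interval of 0.00 to 2.58 (adjusted p = 0.13).

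Group C was the part of the family that fibroblasts expressed most, and its members differed. Sox4, which supports survival of progenitors and is active in many mesenchymal cells, was at 40.1 and 67.4 FPKM in MEFs, 8.39 and 10.3 FPKM in pre-iPSCs, and 28.3 and 21.8 FPKM in iPSCs. The 3 cell types did not overlap, MEFs being highest and pre-iPSCs lowest. Sox4 fell by 2.36 ± 0.39 in pre-iPSCs against MEFs, 5.73 times by the means (adjusted p = 0.0078). Its level was 2.67 times higher in iPSCs than in pre-iPSCs, which did not pass (difference 1.32, interval 0.42 to 2.23, adjusted p = 0.085), and neither did the difference between iPSCs and MEFs (-1.04, adjusted p = 0.089). Sox11, which works with Sox4 in neuronal progenitors, was at 12.1 and 6.27 FPKM in MEFs, 17.9 and 12.6 FPKM in pre-iPSCs, and 5.13 and 8.98 FPKM in iPSCs. MEFs and iPSCs overlapped and pre-iPSCs were above both, yet no comparison called Sox11, the largest difference being -1.04 in iPSCs against pre-iPSCs with an interval of -2.11 to 0.03 (adjusted p = 0.25).

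Sox9 was the other member that MEFs expressed. It was at 5.20 and 9.34 FPKM in MEFs, 2.21 and 1.07 FPKM in pre-iPSCs, and 0.587 and 2.29 FPKM in iPSCs. Both reprogrammed types were below MEFs and overlapped each other. In iPSCs Sox9 fell by 1.81 ± 0.48 against MEFs, 5.06 times by the means (adjusted p = 0.031), a call lost without either iPSC library (adjusted p = 0.23 and 0.087), and in pre-iPSCs the difference of -1.63 missed the threshold (adjusted p = 0.058) and passed it without replicate 1 of MEFs or of pre-iPSCs.

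Sox15, which has been studied in muscle precursors and in embryonic stem cells, was near 0 in MEFs and expressed in both other cell types. It was at 0.0990 and 0.0762 FPKM in MEFs, 4.56 and 20.8 FPKM in pre-iPSCs, and 9.99 and 12.7 FPKM in iPSCs. The iPSC libraries lay between the 2 pre-iPSC libraries, and all 4 were far above MEFs. By the means it was 144.8 times higher in pre-iPSCs than in MEFs, a difference of 3.34 ± 0.53 (adjusted p = 0.0071), and 129.7 times higher in iPSCs, 3.50 ± 0.53 (adjusted p = 0.0044), the second lost without either iPSC library (adjusted p = 0.085 and 0.057). Between iPSCs and pre-iPSCs the difference was 0.16, with an interval of -1.09 to 1.41.

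The group F genes stayed low. Sox18, a regulator of lymphatic endothelium, was at 0.0656 and 0 FPKM in MEFs, 1.54 and 1.75 FPKM in pre-iPSCs, and 0.659 and 0.115 FPKM in iPSCs. Pre-iPSCs were above the others in both libraries, and Sox18 rose by 1.35 ± 0.30 against MEFs (adjusted p = 0.023, and 0.058 without pre-iPSC replicate 2). The lower level in iPSCs than in pre-iPSCs did not pass (difference -0.96, adjusted p = 0.11). Sox17, a regulator of definitive endoderm, was listed at 0 in all MEF and pre-iPSC libraries and at 0.197 and 0.252 FPKM in iPSCs.

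Of the 8 members tested, 3 rose and 1 fell in pre-iPSCs against MEFs, where 7.39% of all genes tested rose and 9.0% fell. In iPSCs against pre-iPSCs 2 rose, where 3.91% of all genes did. In iPSCs against MEFs 3 rose and 1 fell, where 10.3% rose and 15.5% fell. The median difference of the members was 0.70, 0.38 and 0.84 in these comparisons, beside -0.04, -0.09 and -0.14 over all genes. Sox1, Sox3, Sox15, Sox18 and Sox21 were at most 0.104 FPKM in MEFs and reached the mean of 0.5 FPKM only through the reprogrammed cells. Against MEFs they could hardly fall, and Sox17, which stayed low, was not tested. The counts and medians against MEFs are thus partly set by this filter. Sox3, at most 0.806 FPKM outside iPSCs, passed it only through iPSCs. The count and median of iPSCs against pre-iPSCs are therefore partly set by it too. The comparisons share libraries, so their counts are not independent.

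**Figure D2:**
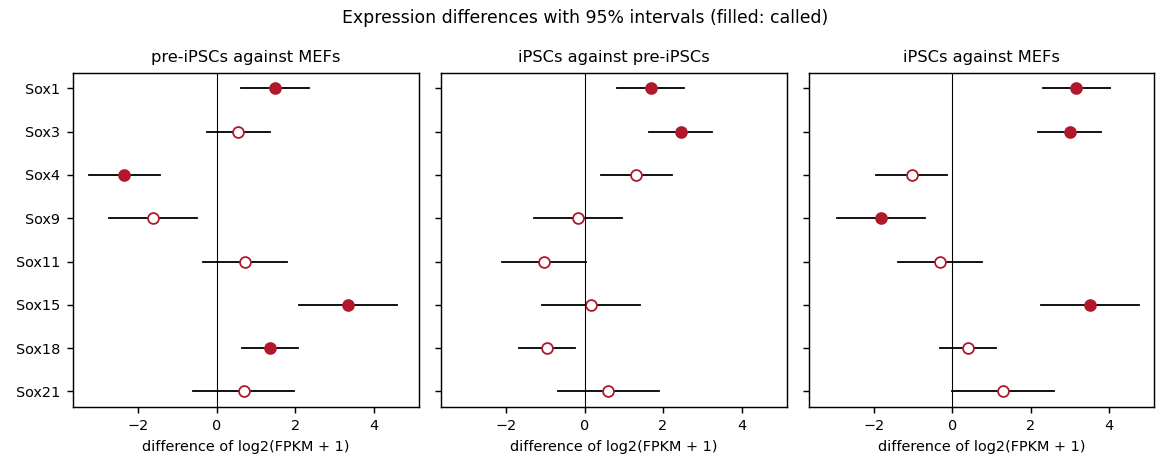
Differences of log2(FPKM + 1) (x axis) for the 8 Sox genes tested, with 95% intervals, in the 3 comparisons. Filled points passed the test. Sox15 lies at 3.34 and 3.50 in the comparisons with MEFs and near 0 between iPSCs and pre-iPSCs, and Sox3 lies at 2.45 there.

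In the order of levels, Sox4 stood above Sox11 in both MEF libraries, Sox11 and Sox9 overlapped, and both stood above Sox15. In pre-iPSCs Sox11, Sox15 and Sox4 came first, at means of 15.3, 12.7 and 9.37 FPKM, and neighbours in this order overlapped. Sox4 was above Sox1, the next member, and the 5 from Sox1 down to Sox3 formed a chain of overlapping ranges from 1.92 to 0.493 FPKM. In iPSCs Sox4 was first at 25.03 FPKM and did not overlap with Sox15. Sox15, Sox1, Sox3 and Sox11 followed at 11.4, 8.40, 7.24 and 7.06 FPKM with ranges that overlapped from one to the next, and Sox11 was above Sox21.

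Of 10 other Sox genes, 8 were too low to be tested. Sox12, the third group C gene, was at 7.45 and 4.18 FPKM in MEFs, 21.2 and 16.2 FPKM in pre-iPSCs, and 42.0 and 20.4 FPKM in iPSCs. It rose by 1.56 ± 0.35 in pre-iPSCs against MEFs (adjusted p = 0.024) and by 2.20 ± 0.35 in iPSCs (adjusted p = 0.0054). The call in pre-iPSCs was lost without the replicate block (adjusted p = 0.054) and without any 1 pre-iPSC or iPSC library (0.052 to 0.40), and that in iPSCs without iPSC replicate 1 (0.071). Sox13, a group D gene, was at 0.672 and 0.954 FPKM in MEFs, 9.15 and 14.8 FPKM in pre-iPSCs, and 7.86 and 6.06 FPKM in iPSCs, and rose by 2.81 and 2.13 against MEFs (adjusted p = 0.0048 and 0.0093), the second lost without iPSC replicate 1 (0.095).

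Lists of genes linked to the roles of the members were followed beside them. Of 12 cartilage genes, among them known targets of Sox9, 5 were tested, and 4 fell in pre-iPSCs against MEFs, where 9.0% of all genes did. Col2a1, the collagen of cartilage and a direct target of Sox9, was at 30.9 and 18.3 FPKM in MEFs, 0.733 and 0.0567 FPKM in pre-iPSCs, and 1.32 and 1.23 FPKM in iPSCs. Col11a1, its partner collagen, was at 27.6 and 18.2 FPKM in MEFs and at most 0.650 FPKM in the other 4 libraries. In iPSCs against MEFs 3 of the 5 fell and Col9a2 rose, where 15.5% of all genes fell and 10.3% rose, the median difference being -2.66. Genes of the list that were low in all cells were not tested. Col11a1 passed the filter on low values through MEFs, and Col9a2 through iPSCs. The counts and the median are thus partly set by this filter, which bears on the lists below in the same way. Of the 12 fibroblast genes, 10 fell in both comparisons with MEFs, and the part of this in the lower cartilage genes was not tested.

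Of 12 genes of neural progenitors, in which the group B1 genes act, 8 were tested. In iPSCs against MEFs 4 rose and 4 fell, where 10.3% and 15.5% of all genes did. Otx2, a factor of the epiblast and forebrain, was at 0 in MEFs, 6.80 and 8.44 FPKM in pre-iPSCs, and 23.1 and 18.6 FPKM in iPSCs. Pax6, a factor of the neural tube, was at most 0.0307 FPKM in MEFs, 4.42 and 7.10 FPKM in pre-iPSCs, and 2.09 and 4.91 FPKM in iPSCs. Cdh2, the neural and mesenchymal cadherin, fell by 3.69 in iPSCs against MEFs, and Fabp7, a fatty acid carrier of radial glia, by 2.33. Of the 7 neuronal genes linked to group C, 6 were in the tables and 5 were tested, and only Elavl3, an RNA-binding protein of neurons, was called, rising by 2.23 in iPSCs against MEFs (10.3% of all genes) and by 2.09 against pre-iPSCs (3.91%).

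Of 12 endothelial genes, 7 were tested. In pre-iPSCs against MEFs 2 rose and 2 fell, where 7.39% and 9.0% of all genes did. Tek, the angiopoietin receptor, was at 0.0210 and 0.0325 FPKM in MEFs, 12.7 and 3.94 FPKM in pre-iPSCs, and 0.715 and 0.921 FPKM in iPSCs. It was highest in pre-iPSCs, as Sox18 was, while Flt1 was highest in MEFs and Pecam1 in iPSCs. Flt1, a VEGF receptor, fell by 2.18 in that comparison. Pecam1, an adhesion molecule of endothelium that pluripotent cells also carry, was at 15.9 and 12.7 FPKM in iPSCs and at 0 in MEFs. Of 12 endoderm genes 9 were tested, with 0 rising and 3 falling in pre-iPSCs against MEFs (7.39% and 9.0% of all genes), and 2 rising and 2 falling in iPSCs against MEFs (10.3% and 15.5% of all genes). In the second comparison Gata4 rose by 1.29 and Dab2 fell by 2.17.

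The genes nearest to a member in profile were taken from the 12401 tested, by the Euclidean distance of centred log2(FPKM + 1) over the 6 libraries. Fam159a and Nefh were nearest to Sox3, at distances of 0.222 and 0.314. Zcwpw1 and Ano9 were nearest to Sox1 (0.579 and 0.583), Chac1 and Slc9a3r2 to Sox4 (0.273 and 0.571), and Sumf1 and Jam3 to Sox9 (0.39 and 0.433). Cml2 and Tnip1 were nearest to Sox18 (0.359 and 0.37). Grtp1 and Syngr1 were nearest to Sox15, at 0.927 and 1.13. The distance is not scaled, so it grows with the size of a gene's changes and cannot be compared between members. Grtp1, at 9.13 and 39.6 FPKM in pre-iPSCs, had a wide gap between the pre-iPSC replicates, as Sox15 did. It was chosen by nearness over these same libraries, which favours such a likeness.

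The next question was whether the promoters of these genes carried H3K4me3 and H3K27me3, and in which cells. Reads of the nucleosome calls were summed within 1000 bp of each TSS. H3K4me3 was tested with edgeR over 17700 genes, after scaling that sets the typical gene to no change. When library sizes were taken from uniquely mapped reads instead, the median of all genes moved to -0.40 in pre-iPSCs and to -0.38 in iPSCs against MEFs (log2), so the changes of H3K4me3 given here are relative to other promoters.

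**Figure D3:**
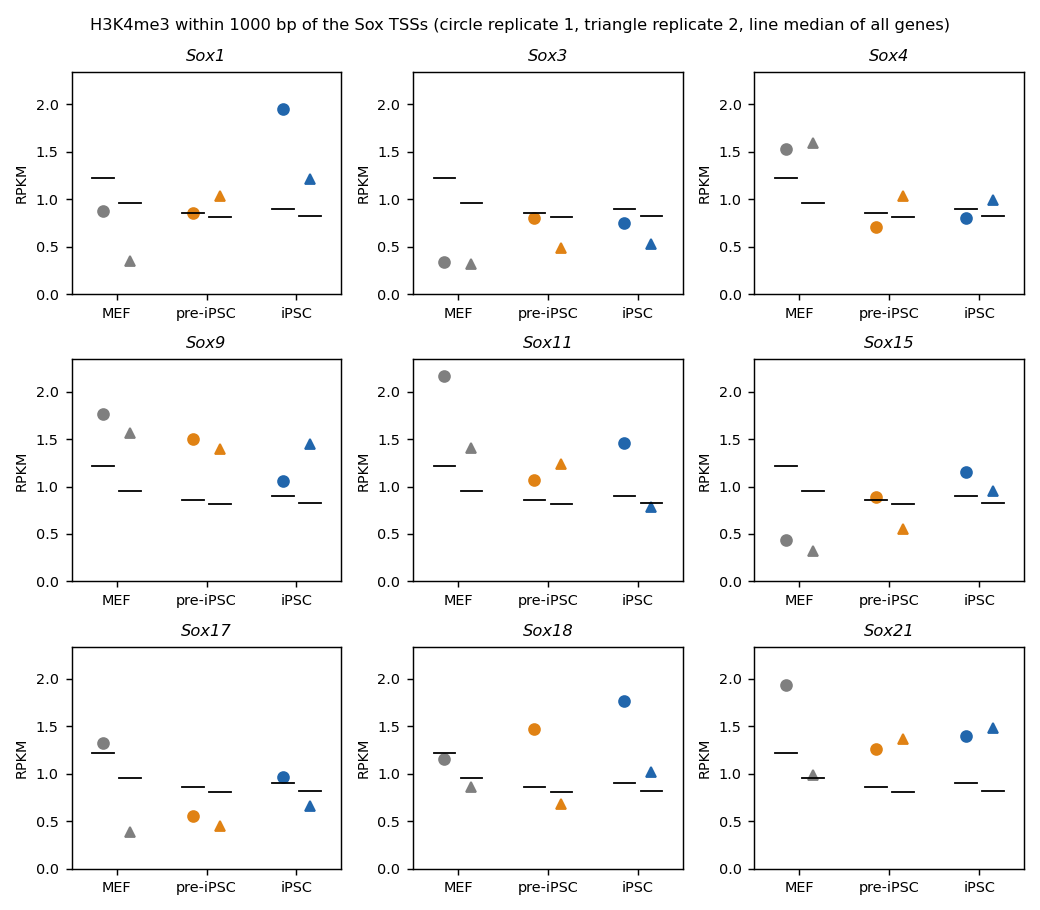
H3K4me3 within 1000 bp of the TSS in RPKM (y axis, the same for all genes) in each library. Circles are replicate 1, triangles replicate 2, and short lines the median of all genes in that library. Sox1, Sox15 and Sox3 lie higher in iPSCs than in MEFs in both replicates, and Sox4, Sox9 and Sox11 start high in MEFs.

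H3K4me3 rose at 4 promoters in iPSCs against MEFs, those of Sox1, Sox15, Sox3 and Sox18, and at that of Sox15 in pre-iPSCs. Sox1 had 26 and 11 reads in MEFs, 28 and 32 reads in pre-iPSCs and 63 and 37 reads in iPSCs, and rose by 1.73 ± 0.35 on the log2 scale in iPSCs against MEFs (edgeR, adjusted p = 0.00026). Sox15 had 13 and 10 reads in MEFs, 29 and 17 reads in pre-iPSCs and 37 and 29 reads in iPSCs. Its groups of MEFs and of reprogrammed cells did not overlap, and it rose by 1.31 ± 0.41 in pre-iPSCs (adjusted p = 0.043) and by 1.81 ± 0.41 in iPSCs (adjusted p = 0.0008), both against MEFs. Sox3 had 10 and 10 reads in MEFs, 26 and 15 reads in pre-iPSCs and 24 and 16 reads in iPSCs, and rose by 1.29 ± 0.44 in iPSCs against MEFs (adjusted p = 0.034). Its reads were alike in pre-iPSCs and iPSCs (difference -0.05, approximate interval -0.78 to 0.67). In that comparison its RNA rose by 2.45 on the log2(FPKM + 1) scale. The window also holds the start of Gm14662, so the H3K4me3 reads cannot be assigned to Sox3 alone. Sox18 had 34 and 27 reads in MEFs, 48 and 21 reads in pre-iPSCs and 57 and 31 reads in iPSCs, and rose by 0.82 ± 0.30 in iPSCs against MEFs (adjusted p = 0.047), though the replicates of MEFs and iPSCs overlapped and its RNA was not called in that comparison (0.40 on the log2(FPKM + 1) scale, limma, adjusted p = 0.37).

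In all, 4 of the 9 members rose and 0 fell in iPSCs against MEFs, where 9.74% of genes rose (1724 of 17700) and 709 fell, and 1 rose in pre-iPSCs against MEFs, where 3.05% did (540 genes) and 141 fell. None was called in iPSCs against pre-iPSCs, where edgeR called 0.0% of all genes, although 1581 genes and 1 member had an unadjusted p below 0.05, and DESeq2 called 0 members there as well. DESeq2 called only Sox1 in iPSCs against MEFs (adjusted p = 0.033), not Sox15 (0.062), Sox3 (0.32) or Sox18 (0.41), and no member in pre-iPSCs against MEFs (Sox15, 0.51). With library sizes from unique reads the balance of all genes turned, to 842 higher and 2370 lower in iPSCs and 232 higher and 1134 lower in pre-iPSCs, both against MEFs. On that scaling the rises of Sox1 (1.38, adjusted p = 0.0040) and Sox15 (1.47, adjusted p = 0.0057) in iPSCs passed, and those of Sox3 (0.95, adjusted p = 0.087) and Sox18 (0.48, adjusted p = 0.27) did not, nor did that of Sox15 in pre-iPSCs (0.93, adjusted p = 0.12). Sox3 and Sox18 were also lost without either MEF library or without iPSC replicate 1, and Sox15 in pre-iPSCs without any 1 of its 4 libraries (adjusted p from 0.055 to 0.40).

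The members that MEFs expressed were not called for H3K4me3 in either comparison with MEFs. Sox4 had 45 and 50 reads in MEFs, 23 and 32 reads in pre-iPSCs and 26 and 30 reads in iPSCs, so that MEFs were above all 4 other libraries. The difference of -0.47 in pre-iPSCs, where its RNA fell, had an approximate interval of -1.02 to 0.09 (adjusted p = 0.36). Sox9 had 52 and 49 reads in MEFs, 49 and 43 reads in pre-iPSCs and 34 and 44 reads in iPSCs (difference of iPSCs from MEFs -0.07, approximate interval -0.56 to 0.43). Sox11 ranged from 24 to 64 reads and Sox21 from 31 to 57 over the 6 libraries. Sox17 had 39 and 12 reads in MEFs, and from 14 to 31 in the others, with no call. The 3 members that were expressed in MEFs, Sox4, Sox9 and Sox11, had 44 to 64 reads there. The others, with almost no RNA in MEFs, ranged from 10 to 57 reads and overlapped them. Sox15 and Sox3 had 10 to 13 reads, Sox1 had 26 and 11, Sox17 had 39 and 12, Sox18 had 34 and 27, and Sox21 had 57 and 31.

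H3K27me3 sorted the members in another way. In MEFs, Sox1, Sox17, Sox18 and Sox21, all below 0.11 FPKM there, had 24 to 46 reads within 1000 bp of the TSS, above the 10.5 and 11.9 reads that the average window of the genome held in the 2 libraries. Sox4, Sox9, Sox11 and Sox15 had 1 to 8 reads, below that average, as was the median of all genes at 6 and 8 reads. Sox3 had 9 and 15 reads. Sox15 was thus silent in MEFs with little H3K27me3 (1 and 3 reads), little H3K4me3 and 6 reads of H3K9me3, the median of all genes there. Sox4, Sox11 and Sox15 were too low in this mark to be tested, and the other 6 members were tested among 10407 genes.

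**Figure D4:**
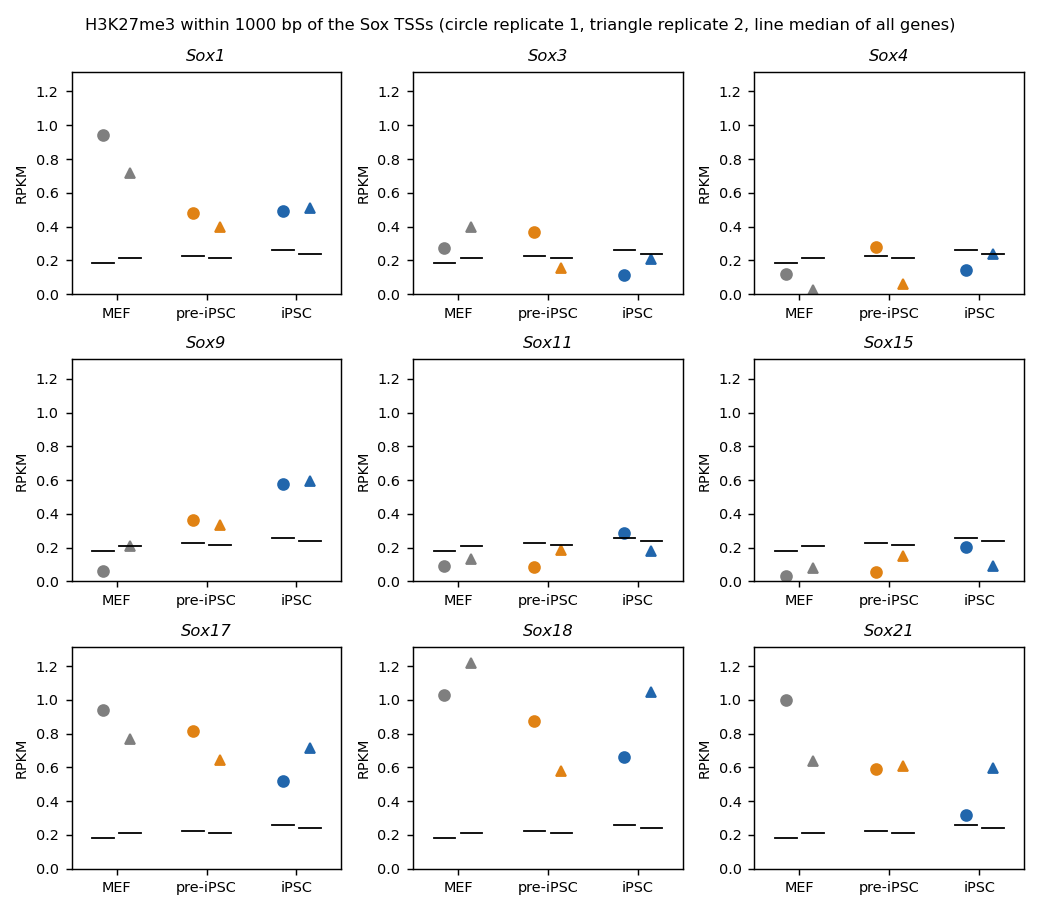
H3K27me3 within 1000 bp of the TSS in RPKM (y axis, the same for all genes) in each library. Circles are replicate 1, triangles replicate 2, and short lines the median of all genes in that library. Sox1, Sox17, Sox18 and Sox21 lie above the median in every library, and Sox9 moves from at or below it in MEFs to above it in pre-iPSCs and iPSCs.

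Sox9 gained the mark. It had 2 and 8 reads in MEFs, 13 and 11 reads in pre-iPSCs and 20 and 20 reads in iPSCs, and none of the 3 cell types overlapped. The rise in iPSCs against MEFs was 1.98 ± 0.50 on the log2 scale, 3.93 times (edgeR, adjusted p = 0.0024). Over the alternatives it ran from 1.37 without MEF replicate 1 (adjusted p = 0.10) to 3.23 with calls of at least 2 reads (adjusted p = 0.012), and it was 3.02 without MEF replicate 2. The difference of 1.29 in pre-iPSCs did not pass (adjusted p = 0.12). Its RNA fell in the same cells while H3K4me3 in its window had no call. In iPSCs Sox9 had 34 and 44 reads of H3K4me3 beside 20 and 20 of H3K27me3. The window also holds the start of BC006965, so the reads of both marks cannot be assigned to Sox9 alone. Sox9 was the only member called for H3K27me3. Of 6 tested, 1 rose in iPSCs against MEFs, where 7.33% of genes rose. In pre-iPSCs against MEFs 0 were called (8.1% of genes), and 0 in iPSCs against pre-iPSCs (0.798%). With 2 and 8 reads in MEFs, Sox9 passed the filter on low counts through the reprogrammed cells. Sox4, Sox11 and Sox15, also low in MEFs, stayed low and were not tested. A member this low in MEFs could thus enter the test only by rising, and the count is partly set by the filter. At an unadjusted p below 0.05 the counts of members were 4, 3 and 0 of 6, beside 2659, 2212 and 1190 of 10407 genes, and DESeq2 called 0 members in each.

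The members marked in MEFs had lower values later without passing the test. Sox1 had 31 and 27 reads in MEFs, 17 and 13 reads in pre-iPSCs and 17 and 17 reads in iPSCs, groups that did not overlap with MEFs, with differences of -0.91 and -0.77 against MEFs (adjusted p = 0.096 and 0.13). Sox21 had 33 and 24 reads in MEFs, 21 and 20 reads in pre-iPSCs and 11 and 20 reads in iPSCs (-0.88 in iPSCs against MEFs, adjusted p = 0.092). Sox18 had 34 and 46 reads in MEFs, 31 and 19 reads in pre-iPSCs and 23 and 35 reads in iPSCs. Sox17 had 31 and 29, 29 and 21, and 18 and 24 reads, and so kept the mark in every cell type while its RNA stayed at or near 0. Over the 6 tested members the median difference was -0.40 in pre-iPSCs and -0.65 in iPSCs against MEFs, beside -0.01 and 0.00 over all genes. This median includes the rise of Sox9 and leaves out Sox4, Sox11 and Sox15, which were not tested. Their means, from at most 10 reads a library, were 0.0738, 0.1116 and 0.0549 RPKM in MEFs and 0.1913, 0.2335 and 0.1456 RPKM in iPSCs.

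Sox3 had 9 and 15 reads of H3K27me3 in MEFs, 13 and 5 reads in pre-iPSCs and 4 and 7 reads in iPSCs, a difference of -1.11 in iPSCs against MEFs (adjusted p = 0.17). The median of 215 X-linked genes was -0.64 for H3K27me3 in this comparison, beside 0.00 for other genes. For H3 the X-linked median was -0.71 (700 genes), beside 0.07 for other genes, while the H3 difference of Sox3 itself was 0.37, with an approximate interval of -1.03 to 1.77. For H3K4me3 the X-linked median was -0.28, opposite to the rise of Sox3. All 4 Y-linked genes looked at were expressed in every library, with 17.9 to 35.6 FPKM in sum, and the number of X chromosomes in the MEFs was not tested.

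**Figure D5:**
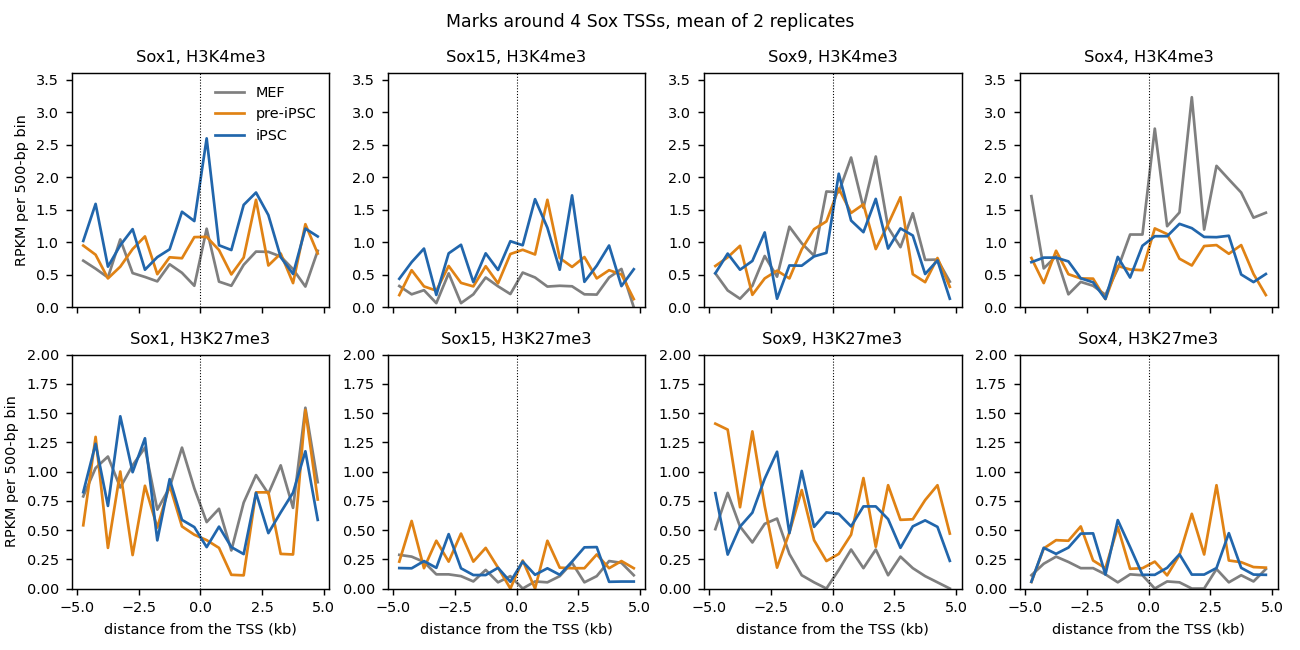
H3K4me3 (top) and H3K27me3 (bottom) around the TSSs of Sox1, Sox15, Sox9 and Sox4, as RPKM in bins of 500 bp (y axis, mean of 2 replicates) against the distance from the TSS in kb, downstream to the right. H3K4me3 of Sox1 and Sox15 is highest in iPSCs near the start, that of Sox4 is highest in MEFs, and H3K27me3 at Sox9 is lowest in MEFs.

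A promoter state was assigned in each library from reads within 500 bp of the TSS, a mark being present above 1 RPKM. Counted over 9 promoters and 6 libraries, H3K4me3 was present 28 times and H3K27me3 4 times. Over the libraries 30.4 to 55.8% of all genes had H3K4me3 alone and 0.437 to 0.903% had both marks. H3K27me3 alone was present at 0.908 to 2.56% of all genes. In MEFs 5 and 4 members had H3K4me3 alone in the 2 replicates, against 55.8% and 47.1% of all genes, and in pre-iPSCs 2 and 4 had, against 40.2% and 30.4%. Sox9 had H3K4me3 alone in all 6 libraries, and Sox3 had neither mark in any. Both marks were present at Sox17 and Sox21 in MEF replicate 1, where 0.739% of all genes had both, and at Sox18 in pre-iPSC replicate 1, where 0.571% had both. Sox18 had H3K27me3 alone in MEF replicate 2, as 2.56% of all genes did. Replicates differed in the state of 3 members or more in every cell type: in iPSCs 7 members had H3K4me3 alone in replicate 1, against 44.3% of all genes, and 3 in replicate 2, against 32.1%. Most members lay near the threshold, so the states are given by library and no change of state was counted.

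How far the marks reached was taken from islands, stretches of 1000-bp windows that held 6 reads or more each. The average window of the genome held 4.69 to 5.95 reads, so islands at this threshold join stretches near the background and their lengths are rough. Over the libraries 28.2 to 38.1% of all genes lay in H3K27me3 islands, with a median length of 30 to 38 kb, and 64.4 to 70.1% in H3K4me3 islands, with a median of 12 to 23 kb. Of the 9 members, 5 lay in H3K27me3 islands in each library and 6 to 9 in H3K4me3 islands. Sox15 lay in no H3K4me3 island in either MEF library and in islands of 24 and 72 kb in pre-iPSCs and 50 and 67 kb in iPSCs. Sox9 lay in no H3K27me3 island in MEFs and in islands of 323 and 347 kb in pre-iPSCs and 73 and 317 kb in iPSCs. Sox3 lay in H3K27me3 islands of 22 and 25 kb in MEFs and in none in the other 4 libraries. Sox17 and Sox18 lay in H3K27me3 islands in all 6 libraries, of 21 to 56 kb and 9 to 32 kb, as did Sox1, with 67 to 363 kb. Sox4 and Sox15 lay in none, and Sox11 in 1, of 14 kb in iPSC replicate 1. Sox21 lay in islands of 59 to 129 kb in all but iPSC replicate 1. At 10 reads or more per window, where 12.7 to 19.5% of all genes lay in H3K27me3 islands and 37.9 to 50.5% in H3K4me3 islands, Sox9 had no H3K27me3 island in pre-iPSC replicate 1 either, and had one of 26 kb in pre-iPSC replicate 2 and of 9 and 23 kb in iPSCs. At that threshold Sox1 had H3K27me3 islands in MEFs only, of 30 and 44 kb, Sox3 had none, and Sox15 had H3K4me3 islands in iPSCs only, of 11 kb in each library.

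H3 did not differ at these promoters beyond the spread of its libraries. In MEFs the members had 12 to 84 reads within 1000 bp of the TSS, and in pre-iPSC replicate 2 they had 10 to 61, while pre-iPSC replicate 1 had 90 to 449. Sox9, for example, had 22 and 37 reads in MEFs, 324 and 26 reads in pre-iPSCs and 137 and 32 reads in iPSCs. The high values were those of the 2 libraries that stood apart by GC content. Of 9 members tested, edgeR and DESeq2 called 0 in each comparison, and edgeR called 0.0% of 19560 genes, with 372, 105 and 296 genes and 0, 1 and 0 members at an unadjusted p below 0.05. Without those libraries, a choice made after seeing the data, 0 members were called as well, 1 library being left in each reprogrammed type, and the difference of Sox9 in pre-iPSCs against MEFs moved from 1.10 to 0.04 and that of Sox18 from 0.59 to -0.79. In the window from -150 to 50 bp, where promoters usually lack nucleosomes, the density of H3 summed over the 9 members was 0.745 and 0.806 of that over 1000 bp either side in the MEF libraries, 0.798 and 0.319 in those of pre-iPSCs, and 0.855 and 1.0 in those of iPSCs. Over all genes the ratio was 0.706 to 0.901. The value of 0.319 rests on 8 reads.

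H3K9me3 was measured in 1 library per cell type, so it was not tested. Intervals are exact Poisson limits at 95% and cover counting error alone. Sox17 had the most reads in MEFs, 23 (14.6 to 34.5), and 12 (6.2 to 21.0) in pre-iPSCs and in iPSCs. Sox1 had 17 (9.9 to 27.2) in MEFs, 6 (2.2 to 13.1) in pre-iPSCs and 9 (4.12 to 17.1) in iPSCs. Sox18 had 11 reads in MEFs, 8 in pre-iPSCs and 18 (10.7 to 28.4) in iPSCs. The lower limits of Sox17 in MEFs, Sox1 in MEFs and Sox18 in iPSCs were above the average window of the genome in their own library, 9.70 reads in MEFs and 9.56 in iPSCs (10.1 in pre-iPSCs). The other 6 members had 3 to 9 reads in every library, under that average in each, and the intervals of each overlapped between cell types.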

How the data were processed

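RNA and chromatin of mouse MEFs, pre-iPSCs and iPSCs were grouped by the sample titles, and a title that names a repeat is replicate 2 here. No column was left unmapped. The 9 genes and the gene lists were chosen with earlier results of these data known.

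For RNA-seq, the authors aligned reads to UCSC mouse genes (mm9) with TopHat2 2.0.4, kept unique reads and computed the deposited FPKM of 20156 genes with Cuffdiff of Cufflinks 2.0.2, 1 table per replicate. For ChIP-seq, they aligned reads to mm9 with Bowtie 1.0.1, kept unique reads with at most 2 mismatches, limited duplicates, shifted each read 73 bp to its dyad, and located nucleosomes with GeneTrack in every library. Per the file headers, the values are a read count per call and its fuzziness, the SD of its read positions. These fuzziness scores were deposited too and entered no test. Totals per library are sums over calls.

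FPKM were tested with limma 3.58.1 (trend) after adding 1 FPKM and taking log2, where the mean reached 0.5 FPKM, with the table as a term because each was normalized on its own. Reads of calls with dyads within 1000 bp of the TSS went into edgeR 4.0.16, whose quasi-likelihood test followed its own filter (filterByExpr) and TMM scaling, at an adjusted p of 0.05 (Benjamini-Hochberg) across all genes tested. SE and intervals of ChIP changes are approximations from the p-value. The study calls the 2 samples of a group biological replicates, and the labels do not say which culture or clone each came from, so p-values measure the spread between these samples. RPKM used the unique reads of the study. Islands held at least 60 reads, with gaps of 1 window. Genes named beyond the members are the other Sox genes called, the called genes of each list with the largest change in each direction (at most 4 a list), the 2 nearest in profile and neighbours within 2000 bp. Nanog, Pou5f1, Zfp42, Esrrb, Dppa3, Tdgf1, Fgf4 and Tdh were named after their values were seen, as genes of pluripotent cells.

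On simulated data, 8 and 61 of 100 planted changes of 4-fold and 8-fold were recovered for expression in pre-iPSCs against MEFs (12401 genes). The counts were 84 and 98 for H3K4me3 (17700 genes), 79 and 94 for H3K27me3 (10407 genes), and 14 and 76 for H3 (19560 genes). For expression 12201 genes were left unchanged, while the measured comparison called 916 genes higher and 1116 lower. The cut set by the adjusted p depends on how many genes change. Recovery in the measured comparisons was therefore not tested. Alternatives were another pseudocount, filter, normalization, window, threshold and tool, DESeq2 1.42.0, a replicate term, and leaving out each library. The work ran in R 4.3.3 and Python 3.11.15 (scipy 1.17.1, pandas 2.3.3, numpy 2.4.6). Vitamin C treatment and ChIP-qPCR were not analysed here.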

Additional observations from a re-analysis of the deposited data

How the results depend on the processing

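Of the 10 calls of expression, 4 held under every alternative: Sox4 and Sox15 in pre-iPSCs and Sox1 and Sox3 in iPSCs, all against MEFs. Sox1 in pre-iPSCs against MEFs did not pass without MEF RNA replicate 1 (adjusted p = 0.15), either pre-iPSC replicate (0.23 and 0.13) or either iPSC replicate (0.058 and 0.063), nor without a filter on low values (0.086). In iPSCs against pre-iPSCs, Sox1 did not pass without either pre-iPSC replicate (0.085 and 0.27) or either iPSC replicate (0.19 and 0.14), with a pseudocount of 0.1 (0.069) or without the filter (0.079), and Sox3 did not without either iPSC replicate (0.085 and 0.068). In iPSCs against MEFs, Sox15 did not pass without either iPSC replicate (0.085 and 0.057), nor did Sox9 (0.23 and 0.087, and 0.083 without the filter). Sox18 in pre-iPSCs did not with quantile normalization (0.053) or without pre-iPSC replicate 2 (0.058). Each left-out library leaves 1 sample in its group, taken to vary like the others. Sox9 in pre-iPSCs against MEFs passed without MEF replicate 1 (0.017) or pre-iPSC replicate 1 (0.026), Sox4 passed in iPSCs against pre-iPSCs without either MEF replicate (0.0074 and 0.0082) and with quantile normalization (0.036) and in iPSCs against MEFs without MEF replicate 1 (0.021), and Sox21 passed against MEFs in pre-iPSCs without pre-iPSC replicate 2 (0.048) and in iPSCs without either pre-iPSC replicate (0.0092 and 0.015).

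Leaving out 1 library gave 3 to 4 members called for expression in pre-iPSCs against MEFs, 0 to 3 in iPSCs against pre-iPSCs and 2 to 5 in iPSCs against MEFs. In iPSCs against pre-iPSCs 1 was called with a pseudocount of 0.1 and 1 without a filter. For H3K4me3 it gave 0 to 3 in pre-iPSCs and 2 to 4 in iPSCs against MEFs, for H3K27me3 0 to 2 in iPSCs against MEFs, and for H3 0 to 2 in pre-iPSCs against MEFs, where Sox9 (adjusted p = 0.013) and Sox18 (0.022) passed without pre-iPSC replicate 2. For H3K4me3 in pre-iPSCs against MEFs, DESeq2, unique-read library sizes and a 500-bp window gave 0, and no filter and calls of at least 2 reads gave 2. In iPSCs against MEFs DESeq2 gave 1, and unique-read sizes and the 500-bp window gave 2. Only Sox1 in iPSCs held under all of them. Sox15 in iPSCs was lost with DESeq2 alone (adjusted p = 0.062), and Sox15 in pre-iPSCs was lost without any 1 MEF or pre-iPSC library (0.055 to 0.4). Sox3 and Sox18 in iPSCs were lost without MEF replicate 1 (0.17 and 0.17), MEF replicate 2 (0.059 and 0.15) or iPSC replicate 1 (0.25 and 0.52). Sox1 and Sox3 passed in pre-iPSCs without iPSC H3K4me3 replicate 2 (0.043 and 0.048), and Sox1 without iPSC replicate 1 (0.047). The H3K27me3 gain of Sox9 was lost with DESeq2 (0 called, adjusted p = 0.22) and without MEF replicate 1 (0.10), and Sox21 passed as lower in iPSCs without MEF replicate 2 (0.027) or iPSC replicate 2 (0.044). The cause was not tested for any of these.

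At 2 RPKM, H3K4me3 was present in 3 promoters, at Sox1 and Sox18 in iPSC replicate 1 and at Sox4 in MEF replicate 2, and H3K27me3 in 0. The share of all genes at 2 RPKM is not given here. With at least 10 reads per window, 18 members and libraries lay in H3K27me3 islands, against 30 at 6 reads, while the share of all genes was 12.7 to 19.5% against 28.2 to 38.1%. No called difference changed sign, while 91 differences that passed in neither setting did, 50 of them of H3. Among single genes and counts of the gene lists, 1292 values stayed on the same side, 44 calls were lost, 18 were gained and 52 counts moved by over 1.5 times. Same-numbered libraries did not pair throughout: correlations of their deviations were 0.346, -0.205 and 0.112 for RNA, and between -0.0473 and 0.795 for the chromatin marks. The replicate block left the count of members called for H3K4me3 at 1, 0 and 4, for H3K27me3 at 0, 0 and 1 and for H3 at 0, and without the block the counts for expression were 4, 2 and 4, as reported. Of Sox12 and Sox13, 1 passed in pre-iPSCs against MEFs without the block, Sox13.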
